A study of Solanum lycopersicum with 24 samples.

Results

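Proteins of the fifth pathogenesis-related class, PR-5, are small and resemble thaumatin, the sweet-tasting protein of a West African fruit. Plants make them after infection, and some of them, called osmotins after the tobacco protein first found in salt-adapted cells, also accumulate during salt and water stress. Purified members permeabilise fungal membranes, and they are found outside cells or in the vacuole. On the arrays used here 4 of 10101 non-control probe sets were named as members of this group in the authors' deposited tables, which gave a single gene symbol to 460 probe sets. They stand for NP24-I, the tomato osmotin known as a salt-induced protein, pr p23, an antifungal protein of viroid-infected tomato (TPM-1 in RefSeq), PR-5, titled PR-5x and known from xylem sap of Fusarium-infected tomato, and LOC543878, titled as a PR5-like protein.

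The material was leaf tissue of flowering tomato (Solanum lycopersicum), and 24 Affymetrix arrays were measured. The drought experiment compared a genotype labelled drought susceptible with one labelled drought tolerant, each as unstressed controls and after 7 days without water. The heat experiment compared a heat susceptible and a heat tolerant genotype, each as unstressed controls and after 60 min at 40 C. This made 8 groups of 3 arrays. The labels give no cultivar names and say neither whether the experiments shared a genotype nor whether separate plants stand behind the 3 arrays of a group. Every p-value thus measures the spread between these arrays, which may be technical. Each genotype stands for 1 line, so a difference between genotypes is at most a difference between these lines. In the drought experiment the spike-in control bioB averaged 5.73 and 5.84 on susceptible and 10.88 and 11.46 on tolerant arrays. A difference between lines there cannot be told apart from a difference in how the arrays were processed.

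The members had been chosen by measured values. Per the file headers, a deposited table lists a probe set where the genotype by treatment term of a 2-way analysis of variance had a corrected p under 0.05 and where stressed and control means differed at least by a fold of 2 in at least 1 genotype. NP24-I and pr p23 were in both tables, PR-5 was in the drought table alone, and LOC543878 was in the heat table alone. Stress responses in an experiment whose table lists the gene are therefore given below as values with no test. Contrasts on which no gene had been listed were tested with limma. They were the responses of PR-5 in the heat experiment and of LOC543878 in the drought experiment, and in both experiments the genotype mean difference. The latter is the tolerant minus the susceptible level averaged over control and stressed plants. Absence from a table also follows from the criteria, so differences between responses are not open tests there. The mean difference shares its group means and spread with the genotype by treatment term, so it is not fully independent of the choice. A gene was called at an adjusted p (Benjamini-Hochberg over 10101 probe sets) under 0.05.

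The authors' deposited table of the heat experiment placed LOC543878 closest to the fold threshold of 2, with 2.08-fold up in tolerant and 1.90-fold down in susceptible plants. On the other side of the criteria, PR-5 was absent from that table, with most heat groups not above background. LOC543878 was absent from the drought table with a computed fold of 6.98 downward in susceptible plants and a log2 difference bounded at -0.23 or lower in tolerant plants.

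All values are log2 expression values, so that a difference of 1 is a doubling. Background was read from 63 reporter probe sets, controls that are not designed against tomato transcripts. A group is described as within the reporter range where at least 2 of its 3 arrays did not exceed the 95th percentile of the reporters on the same array. A difference from such a group is given as a bound, with its arrays raised to that percentile, and no difference is given where both groups lay in that range. The reporter percentile averaged 4.29 and 4.40 in susceptible control and droughted plants, 5.80 and 6.19 in tolerant ones, and between 4.72 and 6.22 in the 4 heat groups. Replicates were tighter in susceptible than in tolerant groups (lowest correlation between replicates 0.9967 against 0.919), yet each fit used 1 spread per probe set, so that standard errors may be too small in tolerant plants. Named leaf markers (10 probe sets, searched by names of rubisco, light-harvesting and photosystem proteins) had medians between 9.96 and 12.56 in the 8 groups. In every group but droughted tolerant plants, 1 of the 10 lay within the reporter range. In bulk leaf RNA, fewer cells of a type and less RNA per cell cannot be told apart.

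In a RefSeq annotation of the tomato genome (assembly SLM_r2.1) the 4 genes lie in a single run of 7 genes. NP24-I and pr p23 are direct neighbours, 1 other gene separates pr p23 from LOC543878, and 2 separate PR-5 from NP24-I. One of these 2, next to NP24-I, is ER1, an ethylene-responsive proteinase inhibitor of type I that was also measured by name. The probe sequences were not used here, and whether a probe set of 1 relative also detects transcripts of another was not tested.

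**Figure D1:**
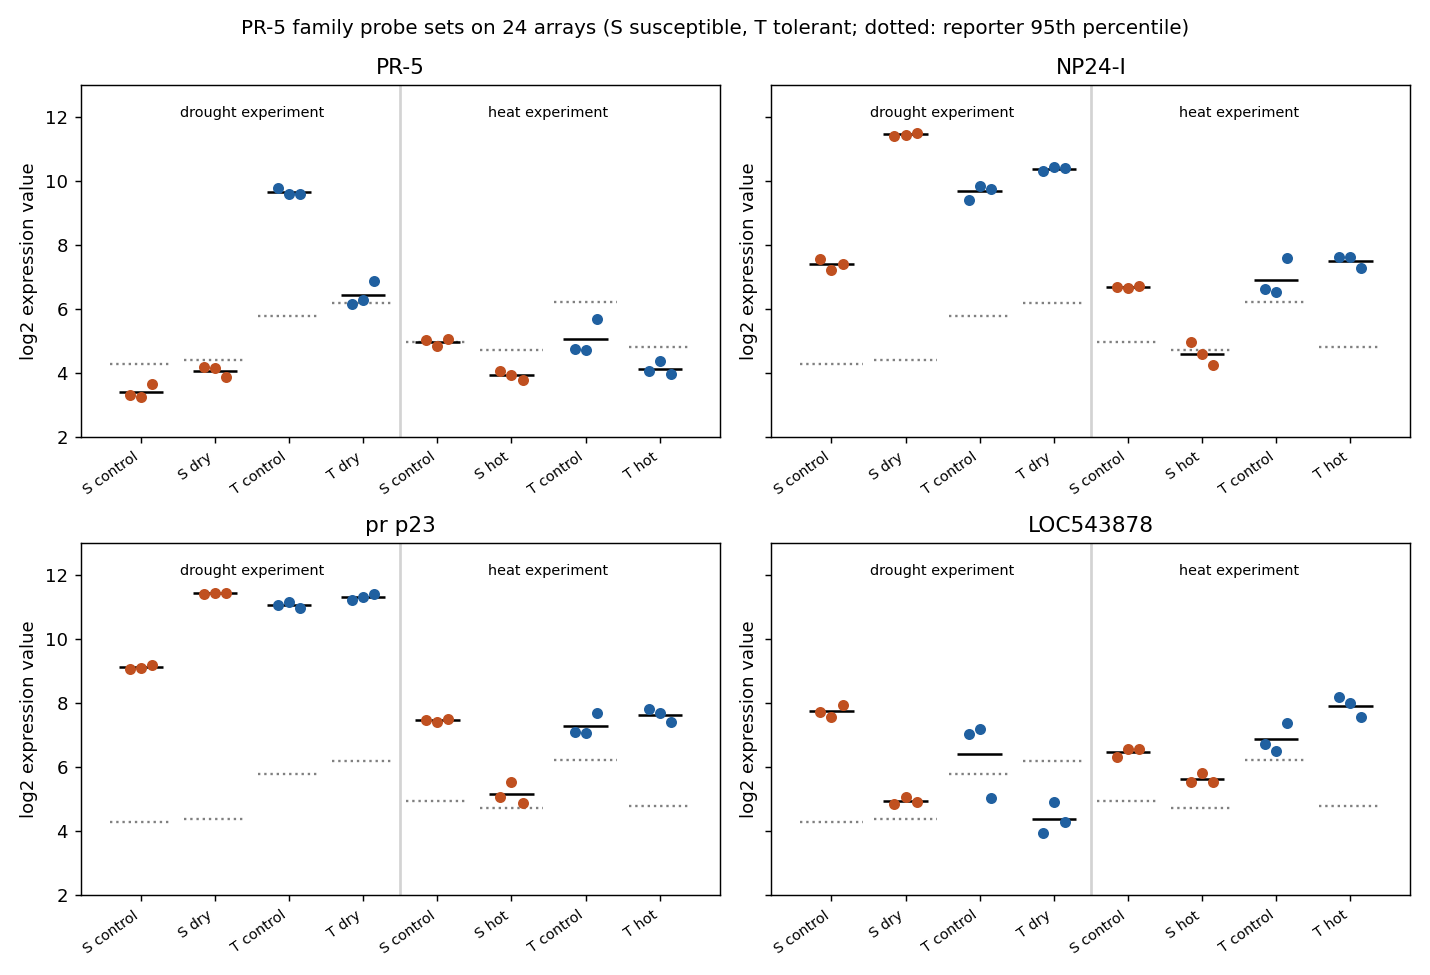
Log2 expression values of PR-5, NP24-I, pr p23 and LOC543878 on all 24 arrays. Points are arrays, short black lines group means and dotted lines the mean 95th percentile of the reporter probe sets in that group. NP24-I and pr p23 were lowest in unstressed susceptible plants of the drought experiment and in heated susceptible plants of the heat experiment. PR-5 stood clear of the reporters in unstressed tolerant plants of the drought experiment, where it averaged 9.66.

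NP24-I, the osmotin, had its lowest level of the drought experiment in unstressed susceptible leaves and its highest in droughted susceptible leaves. The control arrays read 7.55, 7.23 and 7.41, and the droughted arrays 11.42, 11.45 and 11.50. The tolerant genotype had 9.42, 9.85 and 9.76 without stress and 10.30, 10.43 and 10.40 after drought. Neither pair of groups overlapped, and the tolerant controls stood between both susceptible groups. The level was thus 4.06 ± 0.13 (SE) higher after drought in susceptible plants and 0.70 ± 0.13 higher in tolerant plants, and the responses differed by -3.36 ± 0.18 (tolerant minus susceptible). As linear ratios the computed folds were 16.7 and 1.62, and the authors' deposited table has 15.3 and 1.5. The order of the 4 groups, from highest to lowest, was droughted susceptible, droughted tolerant, control tolerant and control susceptible, with no overlap between neighbours.

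The antifungal pr p23 had the same order of groups with smaller steps. It read 9.06, 9.10 and 9.20 in susceptible controls and 11.41, 11.44 and 11.46 in droughted susceptible plants. Tolerant controls read 11.08, 11.17 and 10.98, and droughted tolerant plants 11.23, 11.33 and 11.40. The susceptible controls were thus the only group clearly apart, with the other 3 group means between 11.08 and 11.44. The level was 2.31 ± 0.09 higher after drought in susceptible and 0.24 ± 0.09 higher in tolerant plants, a difference between responses of -2.07 ± 0.13. Between droughted plants the tolerant level was -0.12 ± 0.09 against the susceptible one, and this difference was 0.08 after repeated quantile normalization.

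PR-5 showed another pattern. Susceptible plants of the drought experiment were within the reporter range on all 3 arrays of each group, with 3.31, 3.26 and 3.67 in controls and 4.19, 4.16 and 3.87 after drought, so no response is given for them. Unstressed tolerant plants read 9.77, 9.61 and 9.59, far above the reporter percentiles of 5.54 to 6.12 on the same arrays. Droughted tolerant plants read 6.17, 6.29 and 6.87, each within 0.51 of the reporter percentile of its own array. In tolerant plants the difference between droughted and control levels was -3.21 ± 0.19, a computed linear fold of 9.28 where the authors' deposited table has 5.76. In unstressed plants the tolerant value exceeded the susceptible one by at least 5.37, and in droughted plants by at least 2.04. These bounds raise the susceptible arrays to their own reporter percentiles, which were lower than those of the tolerant arrays. In droughted plants the percentiles averaged 4.40 on susceptible and 6.19 on tolerant arrays, so the bound of 2.04 includes this difference in background. After repeated quantile normalization the measured droughted difference was 1.86 in place of 2.37, so that the bound of 2.04 holds only for the values as deposited.

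Other measures also differed between the genotypes in these groups. The 5 named probe sets for flower and pollen genes ranged from 2.78 to 9.63 in control and from 3.09 to 8.09 in droughted susceptible plants, with 3 of 5 within the reporter range in each. They ranged from 3.86 to 9.10 and from 5.53 to 9.37 in the tolerant groups, with 2 and 1 within that range. The median of 2 fruit markers was 8.75 and 9.20 in susceptible control and droughted plants and 9.83 and 11.35 in tolerant ones. These 2 include ASR1, titled a fruit-ripening protein and also counted below among genes of osmotic stress and abscisic acid. The leaf marker median was 12.44 and 11.45 in susceptible and 11.92 and 9.96 in tolerant plants. The spike-in bioB averaged 5.73 and 5.84 on susceptible and 10.88 and 11.46 on tolerant arrays, and the reporter median was 3.08 and 3.10 on susceptible and 4.06 and 4.38 on tolerant arrays. Within the tolerant genotype, bioB and the reporters were thus higher after drought, where PR-5 was lower. The part of these differences in the PR-5 result was not tested.

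LOC543878 was not in the drought table, so it had not been chosen on its drought responses, and these were tested. It fell in susceptible plants, from 7.73, 7.58 and 7.96 to 4.85, 5.08 and 4.93. The change was -2.80 ± 0.49 (limma adjusted p = 0.00106), with all 3 droughted arrays under all 3 control arrays. Across all probe sets, 42.8% were called for this response, so that a call by itself sets the gene apart from few others. The direction was opposite to that of NP24-I and pr p23 in the same leaves.

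In tolerant plants LOC543878 read 7.03, 7.20 and 5.04 in controls and 3.94, 4.92 and 4.28 after drought. The groups did not overlap, but replicate 3 of the controls stood apart and lay under its reporter percentile of 6.12, as did all 3 droughted arrays under theirs. The fitted change was -2.05 ± 0.49 (limma adjusted p = 0.00595, where 50.6% of all probe sets were called), and as a bound it was -0.23 or lower. Without control replicate 3 the change was -2.74 (limma adjusted p = 3.15e-05). The call was lost in a fit of the tolerant arrays alone (limma adjusted p = 0.0624) and with RNA integrity, described below, as a covariate (-1.43, limma adjusted p = 0.176). The responses of both genotypes differed by 0.76 ± 0.70, with a 95% interval from -0.80 to 2.31, and this difference was not called (limma adjusted p = 0.437, where 37.2% of probe sets were called). With a susceptible fold of 6.98, absence from the drought table means that the genotype by treatment term had not passed there. This outcome was thus largely fixed in advance.

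**Figure D2:**
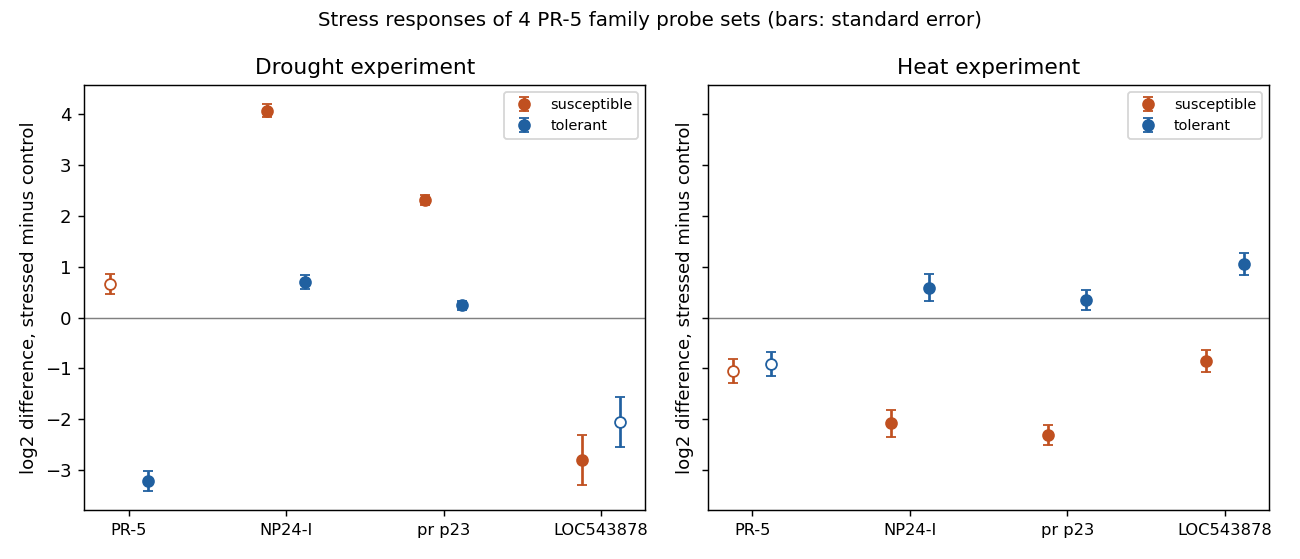
Log2 difference between stressed and control plants for each gene in susceptible and tolerant genotypes, with the standard error of the limma fit. Open circles mark differences with at least 1 group within the reporter range, among them the PR-5 responses to heat. NP24-I and pr p23 lie above 0 in both droughted genotypes, and LOC543878 lies below 0 in both. After heat, NP24-I, pr p23 and LOC543878 lie below 0 in susceptible plants.

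In the heat experiment unstressed plants of both genotypes had similar values of the osmotin, but the tolerant arrays had a higher background. NP24-I read 6.68, 6.65 and 6.73 in susceptible and 6.62, 6.53 and 7.60 in tolerant controls, which overlapped. The susceptible controls lay 1.83, 1.60 and 1.76 above the reporter percentiles of their arrays, and the tolerant controls 0.52, 0.78 and 0.77. The part of background in these values was not tested. After heat it read 4.96, 4.60 and 4.25 in susceptible and 7.63, 7.62 and 7.27 in tolerant plants. Heated susceptible plants were thus the low group, with a mean of 4.61 that was close to the reporter percentiles of 4.60 to 4.80 on these arrays. The level was -2.08 ± 0.26 against controls in susceptible plants and 0.59 ± 0.26 in tolerant plants, where the groups overlapped. The tolerant value was 0.28 after repeated quantile normalization, 0.31 with arrays centred on their medians and 0.99 with array weights. The responses differed by 2.67 ± 0.37, the opposite sign of the drought experiment.

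The neighbour pr p23 read 7.49, 7.42 and 7.51 in susceptible controls and 5.06, 5.53 and 4.90 after heat, a difference of -2.31 ± 0.20. In tolerant plants it read 7.12, 7.06 and 7.70 without stress and 7.82, 7.71 and 7.41 after heat, with overlapping groups and a difference of 0.35 ± 0.20. This value was 0.06 after repeated quantile normalization, 0.07 with arrays centred on their medians and 0.64 with array weights. The responses differed by 2.66 ± 0.28. As for NP24-I, heated susceptible plants were the group apart from the other 3, whose means lay between 7.30 and 7.65. Tolerant controls lay 1.03, 1.31 and 0.87 above their reporter percentiles, and susceptible controls 2.64, 2.37 and 2.53.

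LOC543878 was lower in heated susceptible and higher in heated tolerant plants than in their controls. It read 6.31, 6.56 and 6.57 in susceptible controls and 5.53, 5.82 and 5.55 after heat (-0.85 ± 0.22). Tolerant plants had 6.72, 6.52 and 7.38 without stress and 8.21, 8.01 and 7.56 after heat (1.05 ± 0.22). Neither pair of groups overlapped, the controls of both genotypes did, and the responses differed by 1.90 ± 0.32. With the deposited values quantile normalized once more the tolerant response was 0.72, and with array weights it was 1.4. The tolerant controls lay 0.62, 0.78 and 0.55 above the reporter percentiles of their arrays. These percentiles averaged 6.22 on tolerant control and 4.81 on heated tolerant arrays, and their part in the tolerant response was not tested.

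PR-5 lay within or near the reporter range in the whole heat experiment. Susceptible plants read 5.04, 4.84 and 5.08 in controls and 4.06, 3.95 and 3.79 after heat, a change of -1.05 ± 0.23 (limma adjusted p = 0.00663, where 21.3% of probe sets were called) that is -0.26 or lower as a bound. Tolerant plants read 4.75, 4.72 and 5.70 and then 4.08, 4.38 and 3.97, all under the reporter percentiles of their arrays. The fit called the tolerant contrast as well (limma adjusted p = 0.00691, where 55.1% of probe sets were called), though not from the tolerant arrays alone (limma adjusted p = 0.0536), and no difference is given since both groups lay in the reporter range. The reporter median itself went from 4.43 to 3.51 between these tolerant groups and from 3.54 to 3.42 between the susceptible ones, and its part in the PR-5 values was not tested. The contrast of both responses was not called (0.14 ± 0.33, 95% interval from -0.58 to 0.86, limma adjusted p = 0.761, where 27.6% of probe sets were called). As PR-5 was known to be absent from the heat table, this outcome is not independent of the choice.

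**Figure D3:**
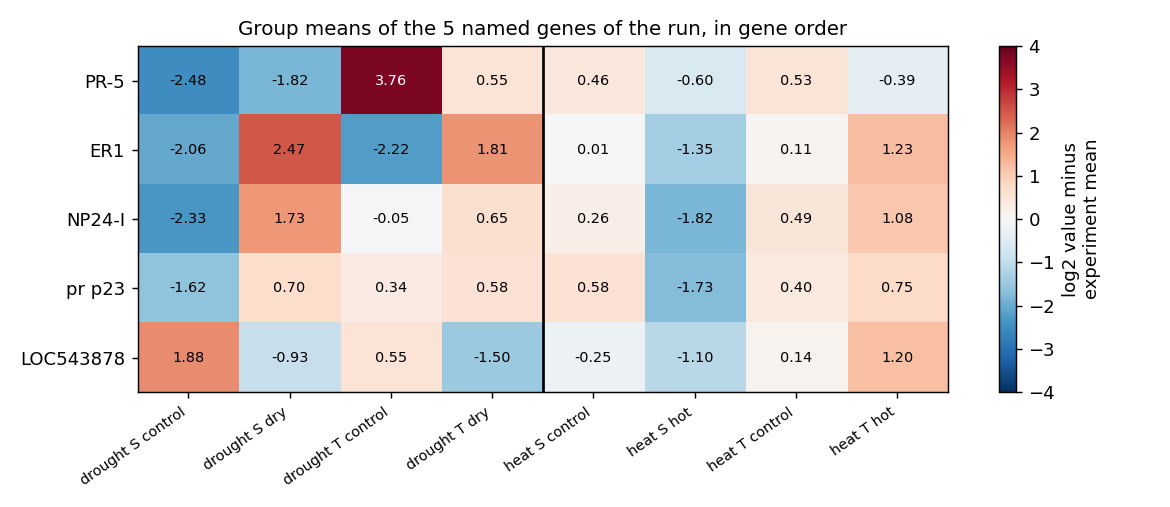
Group means of PR-5, ER1, NP24-I, pr p23 and LOC543878 in their order along the annotated run of genes, each as log2 value minus the gene's mean in that experiment. Red is above and blue below the mean of the experiment. PR-5 has its maximum of 3.76 in unstressed tolerant plants of the drought experiment, and NP24-I, pr p23, ER1 and LOC543878 have their minimum of the heat experiment in heated susceptible plants.

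ER1 is shown for its position next to NP24-I, and it was not in the drought table. Its values were 5.92 ± 0.18 (SD, n = 3) in susceptible controls and 10.45 ± 0.03 after drought, and 5.75 ± 0.45 and 9.79 ± 0.18 in tolerant plants. In contrast to NP24-I, the controls of both genotypes had similar values. The tolerant controls lay within the reporter range, so no difference between controls is given. Both droughted groups were more than 4 above their controls as measured (4.53 and 4.03, the latter at least 3.83 as a bound). In the heat experiment it read 5.28 ± 0.23 and 3.92 ± 0.34 in susceptible control and heated plants and 5.38 ± 0.42 and 6.50 ± 0.41 in tolerant ones. Heated susceptible plants were again the lowest group, and both they and the tolerant controls lay within the reporter range.

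Across the 8 group means, each centred within its experiment, NP24-I and pr p23 correlated at 0.95. LOC543878 correlated with NP24-I at -0.82 over the 12 arrays of the drought experiment and at 0.90 over the 12 arrays of the heat experiment; it fell under drought where NP24-I was higher. PR-5 correlated with NP24-I at 0.21 over the group means. These values are descriptions of arrays that share groups and normalization, and they carry no test.

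The genotype mean difference asks whether a gene was higher in the tolerant line on average over control and stressed plants. A call does not mean that the difference was found under each treatment. In the drought experiment all 4 genes were called, against 73.3% of all probe sets, so the count does not set them apart. The spike-in bioB also separated the genotypes in this experiment, so that line and array processing cannot be told apart. PR-5, NP24-I and pr p23 were higher in tolerant plants (43.2% of all probe sets were called higher) and LOC543878 was lower (30.1% were called lower). PR-5 had the largest difference of the 4, 4.31 ± 0.14 (limma adjusted p = 4.17e-09) and at least 3.71 as a bound, and 0.713% of probe sets had a larger absolute difference. This bound, too, leaves the higher reporter percentiles of the tolerant arrays out of account. The difference of pr p23 was 0.92 ± 0.06 (limma adjusted p = 7.83e-07) and that of NP24-I 0.60 ± 0.09 (limma adjusted p = 0.000203), set against a median of 0.18 over all probe sets. For NP24-I this mean joined differences of opposite direction, 2.28 ± 0.13 in control and -1.08 ± 0.13 in droughted plants. For pr p23 they were 1.96 ± 0.09 and -0.12 ± 0.09, so that its mean difference came from the controls. The same groups entered the choice of PR-5, NP24-I and pr p23 through the genotype by treatment term. Their mean differences are therefore not independent support for that term.

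For LOC543878 the drought genotype mean difference was -0.95 ± 0.35 (limma adjusted p = 0.0306) and only -0.05 or lower as a bound. It was no longer called when any of 6 of the 12 arrays was left out (susceptible control replicates 1 and 3, susceptible droughted replicates 2 and 3, tolerant droughted replicates 1 and 3), with differences from -0.96 to -0.84 and limma adjusted p from 0.0531 to 0.0667. RNA integrity was measured as the 3' minus the 5' signal of actin, ef1a and gapdh, so that a larger value marks less intact RNA. It averaged 1.25 and 0.74 in susceptible control and droughted plants and 2.89 and 1.64 in tolerant ones. All tolerant arrays lay above all susceptible ones (lowest 1.59 against highest 1.37), so this covariate and the genotype are hard to separate. With RNA integrity as a covariate the difference of NP24-I was 0.31 (limma adjusted p = 0.114) and that of LOC543878 was -1.57 (limma adjusted p = 0.087), while PR-5 and pr p23 were still called.

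In the heat experiment 3 of the 4 genes were called, all higher in tolerant plants, where 57.5% of all probe sets were called, with 31.6% called higher and 25.9% called lower. With arrays centred on their medians, 4335 probe sets were called higher and 2138 lower, against 3193 and 2615 without. NP24-I differed by 1.56 ± 0.19 (limma adjusted p = 8.18e-05), LOC543878 by 1.34 ± 0.16 (limma adjusted p = 7.28e-05) and pr p23 by 1.15 ± 0.14 (limma adjusted p = 9.62e-05). Absolute differences larger than theirs were found for 2.23%, 3.88% and 6.63% of probe sets. PR-5, within the reporter range in 3 of the 4 groups, was not called (fitted contrast 0.14 ± 0.16, limma adjusted p = 0.465). RNA integrity averaged 3.58 and 3.15 in susceptible control and heated plants and 4.45 and 4.13 in tolerant ones, and with it as a covariate the differences were 1.53 for NP24-I (limma adjusted p = 0.0198), 1.04 for LOC543878 (limma adjusted p = 0.0311) and 0.98 for pr p23 (limma adjusted p = 0.0321), each still called. The differences of the 3 called genes lay in the heated plants, at 2.90 ± 0.26, 2.30 ± 0.22 and 2.48 ± 0.20, and not in the controls, at 0.23 ± 0.26, 0.39 ± 0.22 and -0.18 ± 0.20. The heated plants also entered the choice of these genes through the genotype by treatment term, so their mean difference is not independent support for that term.

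**Figure D4:**
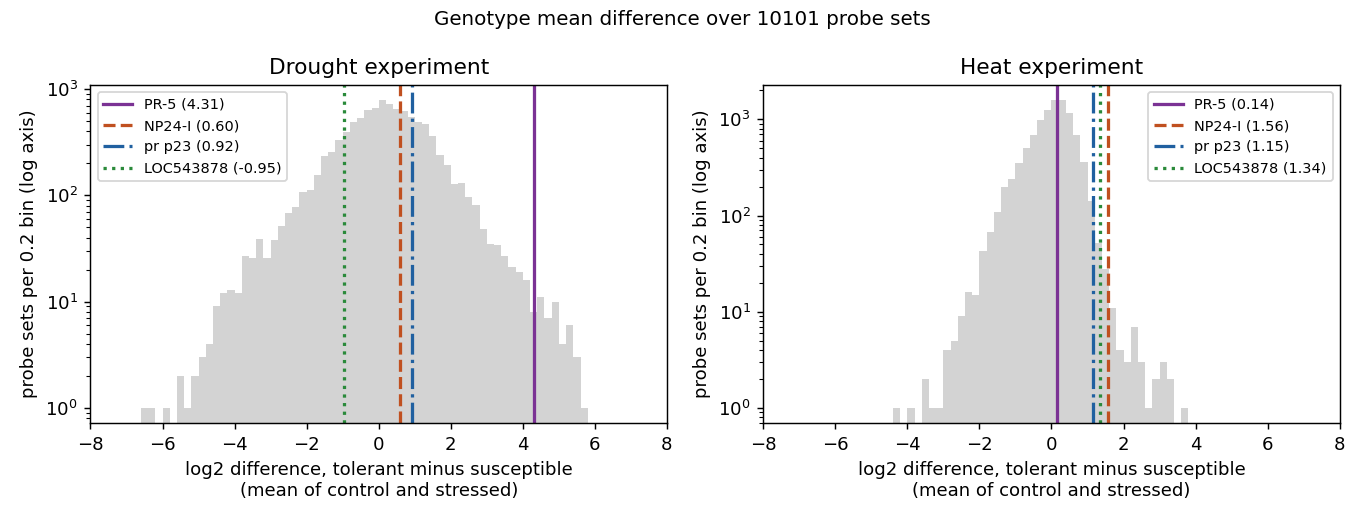
Distribution of the genotype mean difference (log2, tolerant minus susceptible, averaged over control and stressed plants) over 10101 probe sets in each experiment, with a logarithmic count axis. Lines mark the 4 genes with their values. PR-5 lies at 4.31 in the drought experiment and at 0.14 in the heat experiment, where the other 3 genes lie between 1.15 and 1.56.

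Other pathway genes are counted for the same contrast, from lists that hold only genes the deposited tables had selected, so the counts are not independent evidence of a direction. The counts are of fitted calls and include genes with groups within the reporter range. Of 16 other PR proteins (chitinases, glucanases, PR-1, PR-4 and defence proteases), 5 were called higher and 7 lower in tolerant plants of the drought experiment (43.2% and 30.1% over all probe sets), with a median difference of -0.31 against 0.18 over all probe sets. Among them the chitinase CHI3, of a class that attacks fungal walls, was higher by 1.13 ± 0.08 on average (limma adjusted p = 1.16e-06). CHI3 averaged 11.01 in tolerant and 7.51 in susceptible controls, but 12.18 and 13.43 in droughted plants. The chitinase CHI17 was lower (-1.79 ± 0.07, limma adjusted p = 1.59e-08) and so was the glucanase tomQ`b (-0.75 or lower as a bound, limma adjusted p = 0.00939). In controls tomQ`b averaged 8.60 in tolerant and 7.84 in susceptible plants, so its lower mean came from droughted plants. The beta-1,3-glucanase LOC543986 was also called (limma adjusted p = 0.000205), but no mean difference is given, since susceptible controls and droughted tolerant plants lay within the reporter range. It read 8.73 ± 0.26 (SD, n = 3) in unstressed tolerant and 5.59 ± 0.08 in droughted susceptible plants.

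In the heat experiment 8 of the 16 were called higher and 2 lower (31.6% and 25.9% over all probe sets), with a median of 0.33 against 0.08 over all probe sets. The glucanase GluB was higher by at least 0.94 (limma adjusted p = 0.000204) and the protease sbt3 by 0.91 ± 0.11 (limma adjusted p = 7.2e-05). PR1b1 (-0.76 or lower as a bound, limma adjusted p = 3.88e-05, both tolerant groups within the reporter range) and PR-P2 (-1.57 ± 0.21, limma adjusted p = 0.000179) were lower. Without tolerant control replicate 3 the count of lower genes was 4. GluB had the pattern of NP24-I and pr p23, at 4.73 ± 0.40 (SD, n = 3) and within the reporter range in heated susceptible plants and between 6.75 and 7.41 in the other 3 groups. Its tolerant controls averaged 6.75 and its susceptible controls 7.41, so its higher mean came from heated plants.

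Osmotins respond to water deficit and abscisic acid, and 8 genes of that kind were counted. In the drought experiment 3 were called higher and 3 lower in tolerant plants, which as shares of 8 lies near the 43.2% and 30.1% over all probe sets, and the median was -0.30 against 0.18. LeAREB, titled an AREB-like protein, was higher (1.52 ± 0.13, limma adjusted p = 3.19e-06). ER5, a late embryogenesis-like protein (-2.74 ± 0.22, limma adjusted p = 2.13e-06), and the dehydrin TAS14 (-1.60 or lower as a bound, limma adjusted p = 1.1e-07) were lower. SNF4, an energy-sensing kinase subunit, was called higher too (limma adjusted p = 8.58e-05), with no difference given because unstressed tolerant plants lay within the reporter range. In the heat experiment 1 was called higher and 3 lower (31.6% and 25.9% over all probe sets), with a median of -0.12 against 0.08. The gene called higher was SNF4 (limma adjusted p = 0.0112), but both control groups lay within the reporter range and the heated plants read 5.33 ± 0.08 (SD, n = 3) in the susceptible and 5.24 ± 0.06 in the tolerant genotype, so that no difference is given. The lower genes were led by ASR1 (-1.30 ± 0.30, limma adjusted p = 0.00363) and ER5 (-0.50 ± 0.10, limma adjusted p = 0.00189). ASR1 averaged 7.73 in tolerant and 10.91 in susceptible controls, but 8.92 and 8.35 in heated plants.

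Ethylene and jasmonate, which induce the osmotin gene of tobacco, were represented by 30 genes. In the drought experiment 9 were called higher and 19 lower in tolerant plants, against 43.2% and 30.1% over all probe sets, and the median was -0.85 against 0.18. Among them were the ethylene-forming enzyme EFE at 2.50 ± 0.21 (limma adjusted p = 2.55e-06), the receptor ETR4 at 1.92 ± 0.08 (limma adjusted p = 1.74e-08), the jasmonate synthesis enzyme opr at -3.71 or lower as a bound (limma adjusted p = 8.36e-07) and the chaperone ER21 at -3.73 ± 0.13 (limma adjusted p = 8.33e-09). In the heat experiment 8 were called higher and 12 lower, against 31.6% and 25.9% over all probe sets, and the median was -0.08 against 0.08. EFE (0.87 ± 0.13, limma adjusted p = 0.000348) and the receptor ETR6 (0.85 ± 0.19, limma adjusted p = 0.00317) led the higher genes, and the coactivator ER24 (-1.87 ± 0.09, limma adjusted p = 2.39e-07) and the jasmonate synthesis enzyme aos (-1.68 ± 0.19, limma adjusted p = 6.58e-05) the lower ones.

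The named genes most like each PR-5 family gene were found by Pearson's r over the 8 group means, centred within each experiment, among 455 probe sets with a single symbol. NP24-I was most like LeARF1, titled an alpha-L-arabinofuranosidase (0.932), GluB (0.904) and the ferric-chelate reductase FRO1 (0.882). The same 3 genes came first for pr p23, with GluB at 0.940, FRO1 at 0.850 and LeARF1 at 0.812. PR-5 was most like the MYB-domain gene fsm1 (0.961), a laccase, LOC100147721 (0.953), and SBT1 (0.950). For LOC543878 these were the subtilisin-like protease sbt4a (0.904), the cell cycle kinase cdc2A-1 (0.898) and the protease PR-P69 (0.894). This order did not hold over the 24 arrays, where PR-P69 ranked 1 (0.851), sbt4a 6 (0.809) and cdc2A-1 7 (0.802). The group means share normalization and the named genes were selected for differing responses, so these values only describe.

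**Figure D5:**
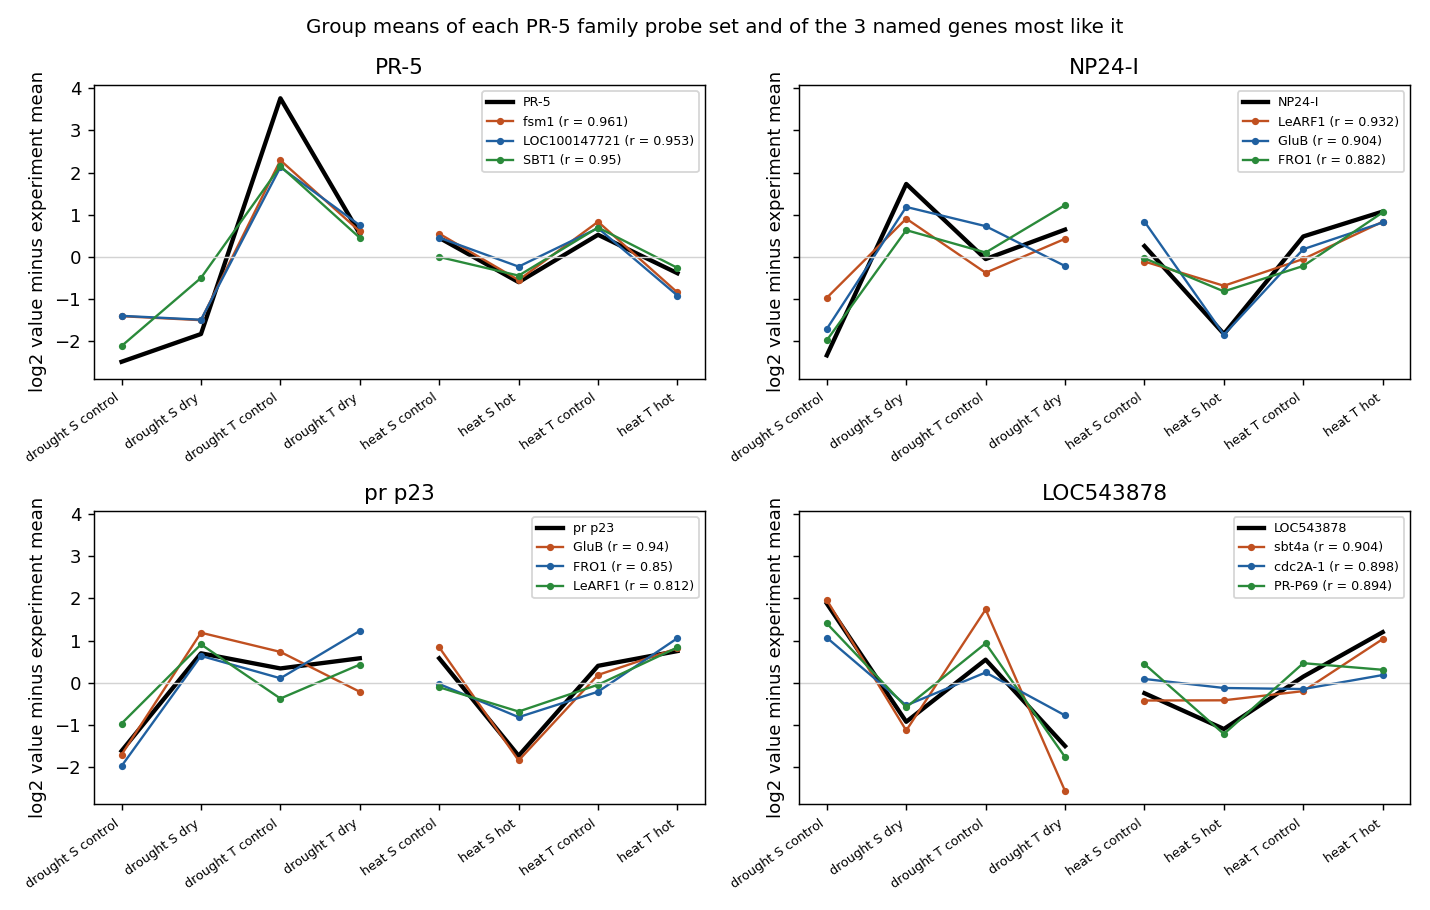
Group means (log2 value minus the gene's mean in the experiment) of each PR-5 family gene in black and of the 3 named genes with the highest correlation to it in colour. For PR-5 the curves peak in unstressed tolerant plants of the drought experiment. For NP24-I and pr p23 the curves are lowest in unstressed susceptible plants of the drought experiment and in heated susceptible plants.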

How the data were processed

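Total RNA from leaves was labelled with biotin and hybridised to Affymetrix tomato arrays, per the labels' protocols. The submitters' processing notes name Affymetrix Expression Console and RMA 1.0 as the tools behind the deposited log2 expression values. They do not state whether the 24 arrays were normalized in 1 run. The authors' deposited tables give fold changes as linear ratios, filtered as the file headers state. The number of arrays limits the precision.

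Groups and replicate numbers came from the sample titles. Each experiment was fitted in limma 3.58.1 (R 4.3.3) as 4 group means over 10101 probe sets, leaving out 108 AFFX control probe sets, with no further normalization and Benjamini-Hochberg adjustment, after a test on simulated data. Names came from the deposited tables, and of 153 locus identifiers 144 were found in the RefSeq table. A list counted 1 probe set per gene, the brightest. Named genes were all 4 members, the 3 genes most like each, and up to 2 higher and 2 lower called genes per list and experiment. The members, lists and tests were chosen with earlier results of these data known. Alternatives covered normalization, dim probe sets, the spread model, the arrays in the fit, a replicate block and left-out arrays. No sequences were used.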

Additional observations from a re-analysis of the deposited data

Results flagged for a closer look

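For LOC543878 the genotypes lay on opposite sides of their controls on every array of the heat experiment. It was lower in all heated susceptible and higher in all heated tolerant arrays than in their controls, with a difference between responses of 1.90. The difference was not tested, since the deposited table had chosen the gene on it.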

How the results depend on the processing

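With the replicate number as a block, the calls were 4 of 4 for the genotype mean difference under drought, 3 of 4 under heat and 4 of 6 for the testable responses, as without it. The same-numbered arrays did not deviate together in the drought experiment (r from -0.127 to 0.115, with 1 of 18 pairs above 0.1). In the heat experiment r ranged from -0.339 to 0.36, with 8 of 18 pairs above 0.1, so some pairs deviated together there. The own number correlated best in 4 of 18 cases under drought and 8 of 18 under heat, and the block changed none of the list counts. RNA integrity as a covariate, an alternative added after seeing the data, left 2 of 4 calls under drought; list counts became 3 higher and 3 lower (PR proteins, drought), 5 and 1 (PR proteins, heat), 0 and 1 (osmotic genes, heat) and 2 higher (ethylene and jasmonate, heat). Of the testable responses, 2 were called without the dimmest 25 percent of probe sets, where 3 could be tested since PR-5 was left out of the heat fit, and 2 of 4 from the arrays of 1 genotype alone, also added after seeing the data, a fit with fewer arrays. Array weights gave 4 lower PR proteins and 2 higher osmotic genes under heat and called the heat response difference of PR-5 (0.43, limma adjusted p = 0.0103); all 24 arrays in 1 fit gave 5 higher ethylene and jasmonate genes. The cause of these shifts was not tested. Over all probe sets, the covariate lowered the calls for the mean difference from 7405 to 4682 (drought) and from 5808 to 1310 (heat). Array weights and single-genotype fits raised those for the susceptible response from 4324 to 7481 and 7502 (drought) and from 2150 to 5480 and 4431 (heat), single-genotype fits lowered those for the tolerant response from 5110 to 3109 and from 5564 to 3174, and array weights raised those for the heat response difference from 2786 to 7197. Leaving out 1 array gave 3 to 4 calls for the drought mean difference, 3 for the heat one, 4 for the responses and 2 to 4 lower PR proteins under heat. Of 970 recomputed differences of the 4 genes, 930 kept their call status or, where untested, moved by less than 1 SD. For untested differences many settings could not change the value. The intensity trend, the replicate block, all 24 arrays in 1 fit and leaving out an array outside the contrast keep it the same. The count of 930 is thus not a measure of stability. Changes of sign, most of them within these 930, were found for 13 differences from 7 contrasts. Among these contrasts were pr p23 between droughted plants (0.08 after repeated quantile normalization) and the drought response difference of LOC543878 (0.76 to -0.01). The others were 3 heat contrasts of PR-5 and the heat controls' difference of NP24-I and pr p23. Of these 7, the LOC543878 contrast and 2 of PR-5 were tested, and none was called with the values as deposited. The median genotype mean difference over all probe sets ranged from -0.04 to 0.26 under drought and from -0.02 to 0.19 under heat over these normalizations and filters.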

Other observations

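The unstressed plants of both experiments can be set side by side, though not compared, since the labels do not say that the genotypes were the same or that the arrays were normalized together. Unstressed tolerant plants had PR-5 at 9.66 ± 0.10 (SD, n = 3) in the drought and 5.06 ± 0.55 in the heat experiment, NP24-I at 9.68 ± 0.23 and 6.92 ± 0.60, pr p23 at 11.08 ± 0.09 and 7.30 ± 0.35, and LOC543878 at 6.42 ± 1.2 and 6.87 ± 0.45. Unstressed susceptible plants had PR-5 at 3.41 ± 0.22, within the reporter range, and 4.98 ± 0.13, NP24-I at 7.40 ± 0.16 and 6.69 ± 0.04, pr p23 at 9.12 ± 0.07 and 7.47 ± 0.04, and LOC543878 at 7.76 ± 0.20 and 6.48 ± 0.14.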
